A study of Mus musculus with 16 samples.

Results

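CDC50A knockdown was set against ATP11A/C knockdown in the mouse macrophage line RAW264.7, 8 of the 16 RNA-seq libraries of a study of phosphatidylserine and LC3-associated phagocytosis. The members were taken by their labels, 4 libraries of CDC50A KD and 4 of ATP11A/C KD, and the 4 Parental libraries served as the level outside both knockdowns. CDC50A KD names cells with knockdown of CDC50A, the product of Tmem30a, ATP11A/C KD names cells with the flippase knockdown so labelled, and Parental names the unmodified line. The 4 ORP5/8 KD libraries entered the model only. All cells came from the RAW264.7 line (TIB-71), were plated in complete medium and were collected a day later, with no particle or ligand named. Library names of both knockdowns start with "sh", left unexplained in the labels; whether a line is a pool or 1 clone is not given in the sources used here, and no non-targeting construct is among the libraries used here. The labels do not say that the 4 libraries of a group came from separate cultures, and the tests therefore cover only library-to-library spread, part or all of which may be technical.

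P4-ATPases are lipid pumps, and some of them move phosphatidylserine and other aminophospholipids from the outer to the inner leaflet of the plasma membrane. Most P4-ATPases, ATP11A included, leave the endoplasmic reticulum only in complex with the subunit CDC50A. Loss of CDC50A therefore affects many flippases, and loss of a catalytic subunit affects that flippase. In macrophages, surface phosphatidylserine bears on the clearance of dying cells and on membrane traffic during phagocytosis.

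Among 13107 genes tested, 3428 (26.2%) were called different between the knockdowns at an adjusted p under 0.05 (edgeR's quasi-likelihood test, Benjamini-Hochberg). Of these, 1763 (13.5%) were higher and 1665 (12.7%) lower in CDC50A KD. The differences were mostly small, with a median absolute log2 fold change of 0.258 among called genes and a median of 0.00669 over all tested genes. At least 2-fold, 30 genes (0.229%) were higher and 189 (1.44%) lower, and with a mean of at least 10 CPM (counts scaled to library size) in the higher group these numbers were 2 and 12. The 4 and 4 libraries did not overlap for 1532 genes higher (11.7%) and 1371 lower (10.5%) in CDC50A KD. The count of higher genes was 1118 without ATP11A/C KD library 3 and 1169 without CDC50A KD library 3.

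Total counts were 24020891 to 40668919 per CDC50A KD library and 31771196 to 40927250 per ATP11A/C KD library. Summed over the macrophage identity list, levels were 9450 to 9840 CPM in CDC50A KD and 8400 to 8790 CPM in ATP11A/C KD, with Lyz2 the most abundant member. The epithelial markers were at 0 in all 8 libraries, and the lists of fibroblast, lymphocyte, and neutrophil and mast cell markers each summed to at most 0.438 CPM in CDC50A KD and 0.693 CPM in ATP11A/C KD. The 7 dendritic cell markers, 3 of them at 0, summed to 2.28 to 2.68 CPM in CDC50A KD and 3.22 to 3.81 CPM in ATP11A/C KD. Their most abundant member, Zbtb46, was lower in CDC50A KD, at 1.53 to 1.70 CPM in CDC50A KD and 2.33 to 2.82 CPM in ATP11A/C KD (log2 fold change -0.65 ± 0.16 (SE), adjusted p = 0.0054), and the part of these markers in other results was not tested. ATP11A/C KD library 1 stood apart. Gm42418, a non-coding record that often collects ribosomal RNA reads, had 582, 484, 1187 and 279.5 CPM in CDC50A KD libraries 1 to 4, against 4904, 273, 1398 and 579.8 CPM in ATP11A/C KD libraries 1 to 4. Without that library, 1873 genes were called higher and 1968 lower in CDC50A KD. Each mean ± SD is over the 4 libraries of a group. Counts from mitochondrial genes took 1.63 ± 0.151% of each CDC50A KD library and 1.56 ± 0.194% of each ATP11A/C KD library (SD, n = 4 each), a difference of 0.0756 percentage points (two-sided exact permutation test, p = 0.629; 0.0286 is the smallest p that 4 against 4 allows).

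Atp11a separated the knockdowns, and Tmem30a did not. Atp11a (chr8:12757014-12868728), a P4-ATPase of the plasma membrane, had 43.1, 41.3, 44.7 and 43.2 CPM in CDC50A KD libraries 1 to 4, against 22.6, 20.6, 21.1 and 21.2 CPM in ATP11A/C KD libraries 1 to 4. It was higher in every CDC50A KD library (log2 fold change 1.01 ± 0.04 (SE), adjusted p = 5.8e-12). Against Parental, at 61.4 ± 1.91 CPM (SD, n = 4), its log2 fold change was -0.51 for CDC50A KD, at an adjusted p of 2.9e-09, and -1.52 for ATP11A/C KD, at 1.1e-16. In bulk libraries a lower level in all cells and a loss in part of the cells cannot be told apart.

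Tmem30a (chr9:79768943-79793507), which encodes CDC50A, had 119.8, 134, 126 and 128 CPM in CDC50A KD libraries 1 to 4, against 126, 158, 141 and 143 CPM in ATP11A/C KD libraries 1 to 4. The highest CDC50A KD library lay above the lowest ATP11A/C KD library, and the difference missed the threshold (log2 fold change -0.16 ± 0.06 (SE), adjusted p = 0.057; adjusted p from 0.0061 without ATP11A/C KD library 1 to 0.172 without ATP11A/C KD library 2). It passed with upper-quartile scaling (adjusted p = 0.0369), with a filter of 1 CPM in 4 libraries (0.0409), with DESeq2 (0.0375) and without CDC50A KD library 2 (0.0421). Against Parental, at 162 CPM, Tmem30a was lower in both, with log2 fold changes of -0.35 for CDC50A KD, at an adjusted p of 7.9e-05, and -0.19 for ATP11A/C KD, at 0.02. The measured lowering of the CDC50A transcript was thus modest, and RNA gives no measure of the protein.

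Atp11b, a flippase of endosomes, had 79.7 to 91.6 CPM in CDC50A KD and 76.9 to 94.4 CPM in ATP11A/C KD (log2 fold change 0.01 ± 0.06 (SE), adjusted p = 0.949). Osbpl8, a lipid transfer protein between the endoplasmic reticulum and the plasma membrane that neither label names, was at 116 ± 4.41 CPM in CDC50A KD and 127 ± 8.99 CPM in ATP11A/C KD (SD, n = 4 each; log2 fold change -0.13 ± 0.06 (SE), adjusted p = 0.097), against 337 ± 5.84 CPM in Parental. Osbpl5, its relative, was under 0.4 CPM in all 8 libraries and was not tested.

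**Figure D1:**
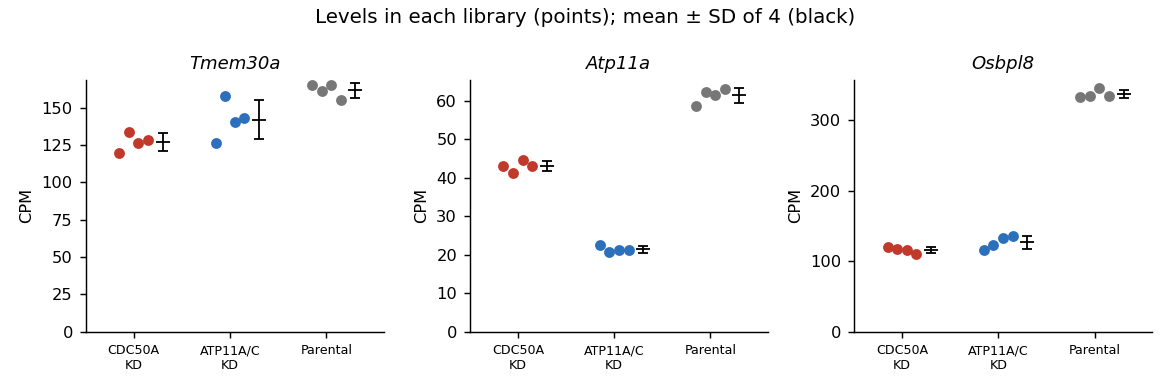
CPM of Tmem30a, Atp11a and Osbpl8 on the vertical axes, with 1 point per library of CDC50A KD, ATP11A/C KD and Parental and the mean ± SD of 4 libraries in black. Only Atp11a of these 3 genes separates the knockdowns without overlap, at 41.3 to 44.7 CPM in CDC50A KD and 20.6 to 22.6 CPM in ATP11A/C KD.

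**Figure D2:**
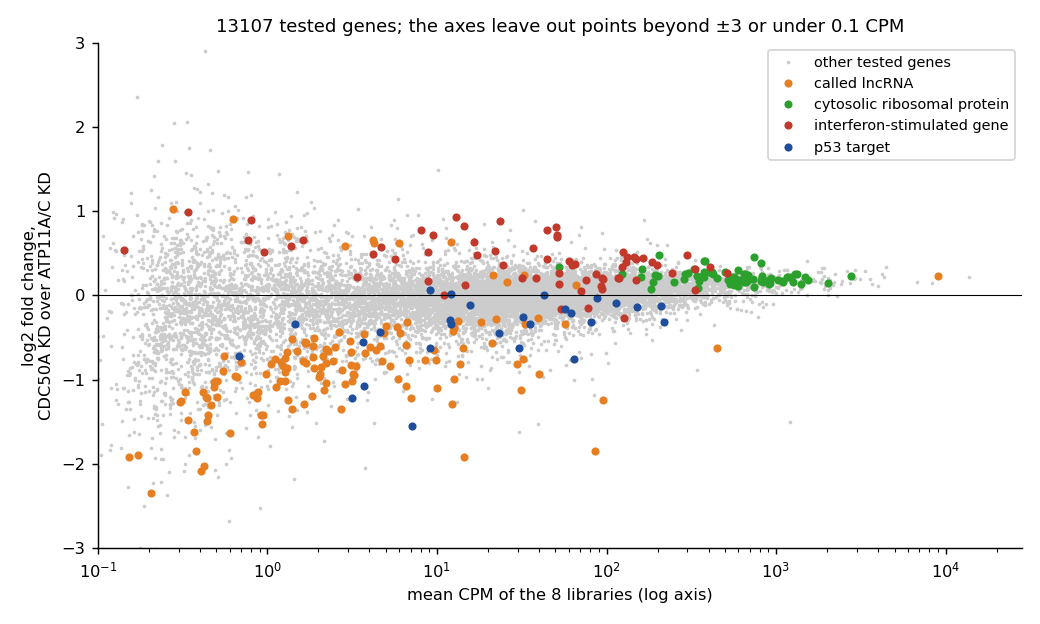
Mean CPM of the 8 libraries (log axis) against the log2 fold change of CDC50A KD over ATP11A/C KD for the tested genes, with called lncRNAs, cytosolic ribosomal proteins, interferon-stimulated genes and p53 targets coloured. Interferon-stimulated and ribosomal protein genes lie mostly above 0, lncRNAs and p53 targets mostly below.

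Interferon-stimulated genes were less reduced in CDC50A KD than in ATP11A/C KD. Of 65 listed and tested, 47 were called higher in CDC50A KD (72.3%, beside 13.5% of all tested genes) and 1 lower (1.54%, beside 12.7%). The median log2 fold change was 0.395, with an estimate above 0 for 61. Set against Parental, 64 members were called lower for CDC50A KD and 65 for ATP11A/C KD, beside 26.1% and 20.2% of all tested genes. For neither knockdown was a member called higher, beside 24.3% of all genes for CDC50A KD and 17.4% for ATP11A/C KD. The medians against Parental were -0.824 in CDC50A KD and -1.15 in ATP11A/C KD, over the same Parental libraries. Leaving out 1 library at a time gave 40 to 50 members higher.

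Type I interferon acts through transcription factors, STAT2 and IRF9 among them, that bind the interferon-stimulated response element (ISRE) in the promoters of these genes. Its core, taken here as GAAA, any 2 bases and GAAA on either strand within 250 bases upstream of the start, occurred in 2.98% of 32851 RefSeq promoters and in 29 of the 52 listed genes that have one in that table (55.8%). Among listed and tested genes, 21 of 29 with the core were called higher and 17 of 23 without it. The 4 windows below, from RefSeq promoters on GRCm38.p6 and written 5′ to 3′ on the gene's strand, show it in capitals in genes called higher in CDC50A KD, the reverse complement in Rsad2, Apol9a and Slfn8 and overlapping copies in Apol9a and Isg15.
Rsad2 (chr12:26456523-26456612, gene strand -): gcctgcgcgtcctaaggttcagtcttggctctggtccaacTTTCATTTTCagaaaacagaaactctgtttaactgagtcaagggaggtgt
Apol9a (chr15:77411090-77411179, gene strand -): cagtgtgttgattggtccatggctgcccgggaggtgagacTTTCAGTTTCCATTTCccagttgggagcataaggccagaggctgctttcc
Isg15 (chr4:156200847-156200936, gene strand -): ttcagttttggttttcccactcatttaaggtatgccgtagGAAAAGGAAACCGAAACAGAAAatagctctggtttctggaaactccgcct
Slfn8 (chr11:83020811-83020898, gene strand -): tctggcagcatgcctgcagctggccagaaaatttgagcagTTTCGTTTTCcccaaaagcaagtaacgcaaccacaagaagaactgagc
A match is a string of letters and not evidence of binding.

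Of the members described here, several encode antiviral effectors. Rsad2, which encodes viperin, had 24.1, 34.1, 29.5 and 35.1 CPM in CDC50A KD libraries 1 to 4, against 15.5, 16.4, 17.7 and 16.4 CPM in ATP11A/C KD libraries 1 to 4. Every CDC50A KD library was above every ATP11A/C KD library (log2 fold change 0.89 ± 0.08 (SE), adjusted p = 6.5e-07), and both were far below Parental at 99.9 ± 3.25 CPM. Oasl2, a relative of the oligoadenylate synthetases, had 55.7, 65.7, 62.1 and 73.4 CPM in CDC50A KD libraries 1 to 4, against 35.9, 38.2, 38.4 and 34.1 CPM in ATP11A/C KD libraries 1 to 4, again with no overlap (log2 fold change 0.81 ± 0.06 (SE), adjusted p = 4.7e-08). Cmpk2, a mitochondrial nucleotide kinase, had 58.7, 67.4, 60.7 and 67.3 CPM in CDC50A KD libraries 1 to 4, against 36.8, 41.1, 40.1 and 38.99 CPM in ATP11A/C KD libraries 1 to 4. Its libraries did not overlap either (log2 fold change 0.69 ± 0.06 (SE), adjusted p = 1.8e-07). The ubiquitin-like modifier Isg15 was at 56.5 ± 6.84 CPM in CDC50A KD and 32.98 ± 1.62 CPM in ATP11A/C KD (log2 fold change 0.78 ± 0.09 (SE), adjusted p = 5e-06). The exonuclease gene Isg20 was at 16.9 ± 3.49 CPM in CDC50A KD and 8.93 ± 0.585 CPM in ATP11A/C KD (log2 fold change 0.92 ± 0.12 (SE), adjusted p = 2.5e-05). Zbp1, which senses Z-form nucleic acid, was at 10.2 ± 1.75 CPM in CDC50A KD and 5.93 ± 0.718 CPM in ATP11A/C KD (log2 fold change 0.78 ± 0.11 (SE), adjusted p = 4.1e-05). All SDs are over n = 4.

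Ddx58, which encodes the RNA sensor RIG-I, had 176, 199, 185 and 199 CPM in CDC50A KD libraries 1 to 4, against 132, 141, 141 and 145 CPM in ATP11A/C KD libraries 1 to 4 (log2 fold change 0.44 ± 0.04 (SE), adjusted p = 1.1e-06). Irf7, the master factor of type I interferon induction, had 0.48 (adjusted p = 1.7e-05) as its log2 fold change. For the RNA-binding effectors Ifit1 and Ifit3 the values were 0.63 (adjusted p = 2.5e-05) and 0.71 (adjusted p = 0.00031); reads of Ifit3 may be shared with Ifit3b. Apol9a and Apol9b, apolipoprotein L genes with near-identical sequences whose counts the quantification could split, had log2 fold changes of 0.72 (adjusted p = 1.1e-06) and 0.83 (adjusted p = 1.3e-05). Apol9a was at 57.1, 59.4, 61.6 and 75.2 CPM in CDC50A KD libraries 1 to 4, against 39.2, 37.8, 41.7 and 35.6 CPM in ATP11A/C KD and 72.5, 74.5, 69.3 and 77.2 CPM in Parental; its log2 fold change against Parental was -0.21 for CDC50A KD and -0.93 for ATP11A/C KD. Slfn8, a schlafen gene, had a log2 fold change against Parental of -0.04 for CDC50A KD, at an adjusted p of 0.51, and of -0.48 for ATP11A/C KD, at 1.1e-07; the knockdowns differed directly by 0.44 (adjusted p = 5.1e-06).

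The estimate was not above 0 for 4 of the 65 members. Oas2, an oligoadenylate synthetase, was the 1 listed gene called lower in CDC50A KD, at 114 ± 11.4 CPM in CDC50A KD and 138 ± 10.2 CPM in ATP11A/C KD (SD, n = 4 each; log2 fold change -0.27 ± 0.07 (SE), adjusted p = 0.011), with overlapping libraries. Mx2, whose record is classed as a polymorphic pseudogene, had 9.04, 9.68, 9.31 and 16.1 CPM in CDC50A KD libraries 1 to 4, against 8.98, 12.6, 12 and 10.9 CPM in ATP11A/C KD libraries 1 to 4, with 1 CDC50A KD library well above the other 3. Its difference passed the threshold in neither direction (log2 fold change -0.001 ± 0.15 (SE), adjusted p = 0.998). Outside the list, Slfn4 was 20.2 ± 7.71 CPM in CDC50A KD and 58.8 ± 26.4 CPM in ATP11A/C KD (log2 fold change -1.52 ± 0.32 (SE), adjusted p = 0.0018), with overlapping libraries and a Parental level of 313 ± 109 CPM. It was lowest of its group in ATP11A/C KD library 1 (28.1 CPM) and Parental library 2 (176 CPM).

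**Figure D3:**
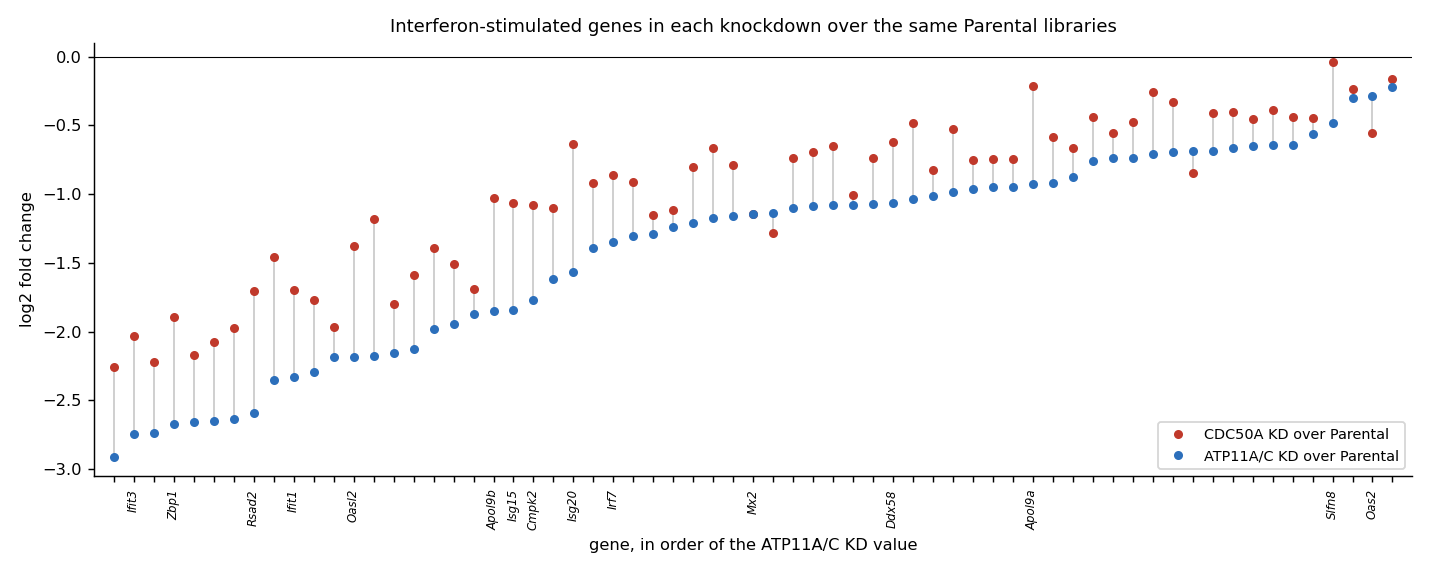
Log2 fold change over the same 4 Parental libraries for 65 interferon-stimulated genes, in CDC50A KD (red) and ATP11A/C KD (blue), ordered by the ATP11A/C KD value, with names under those described in the text. Every point lies below 0, and the CDC50A KD point lies above the ATP11A/C KD point for 61 genes.

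Class I antigen presentation showed the same direction. Of 21 tested genes of MHC class I and peptide loading, 17 were called higher in CDC50A KD (81%) and 1 lower (4.76%). Over all tested genes these shares were 13.5% and 12.7%. The median log2 fold change was 0.201, and 11 class I genes were higher without CDC50A KD library 4. Several of these genes are themselves interferon-responsive. Psmb8, an immunoproteasome subunit, had 125, 129, 137 and 139.7 CPM in CDC50A KD libraries 1 to 4, against 103, 95.6, 95.03 and 96.3 CPM in ATP11A/C KD libraries 1 to 4 (log2 fold change 0.44 ± 0.05 (SE), adjusted p = 6.2e-06). B2m, which encodes beta-2 microglobulin, had 747, 797, 774 and 760.3 CPM in CDC50A KD libraries 1 to 4, against 602, 683, 550.0 and 608 CPM in ATP11A/C KD libraries 1 to 4 (log2 fold change 0.33 ± 0.05 (SE), adjusted p = 8.2e-05). In both, no library of one group reached the other. The log2 fold changes of the peptide transporter gene Tap1, at 0.36 (adjusted p = 0.00019), and the immunoproteasome subunit gene Psmb9, at 0.35 (adjusted p = 0.0003), were similar. Nlrc5, the transactivator of class I genes, was the exception, at 22.4, 23.99, 23.2 and 25.9 CPM in CDC50A KD and 29.1, 31.4, 31.4 and 26.9 CPM in ATP11A/C KD (log2 fold change -0.32 ± 0.07 (SE), adjusted p = 0.0019).

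Genes of endoplasmic reticulum protein folding were higher in CDC50A KD. Of 31 tested members of the unfolded protein response and chaperone list, 20 were called higher (64.5%, beside 13.5% of all tested genes) and 1 lower (3.23%, beside 12.7%). The median log2 fold change was 0.195. Against Parental the medians were 0.318 in CDC50A KD and 0.123 in ATP11A/C KD, with 22 and 18 members called higher and 2 and 4 lower. Over all tested genes, 24.3% and 17.4% were called higher than Parental and 26.1% and 20.2% lower. The endoplasmic reticulum stress element (ERSE), the site through which ATF6 and NF-Y act on these promoters, is CCAAT, any 9 bases and CCACG. On either strand within 250 bases upstream it occurred in 0.113% of the 32851 promoters and in 9 of 27 listed genes with a promoter in the table (33.3%). Among tested members, 6 of 8 with it and 10 of 18 without it were called higher. The 4 windows below, also from RefSeq on GRCm38.p6, show it in capitals in chaperone genes called higher, the reverse complement in Creld2 and Calr.
Dnajc3 (chr14:118937787-118937885, gene strand +): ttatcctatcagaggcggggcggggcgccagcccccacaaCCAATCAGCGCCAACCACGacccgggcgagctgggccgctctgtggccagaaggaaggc
Creld2 (chr15:88819480-88819578, gene strand +): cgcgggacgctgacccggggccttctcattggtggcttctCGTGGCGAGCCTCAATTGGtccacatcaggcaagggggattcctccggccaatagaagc
Calr (chr8:84847035-84847133, gene strand -): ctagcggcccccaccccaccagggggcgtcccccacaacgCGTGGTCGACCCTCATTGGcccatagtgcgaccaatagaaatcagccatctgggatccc
Pdia6 (chr12:17266451-17266549, gene strand +): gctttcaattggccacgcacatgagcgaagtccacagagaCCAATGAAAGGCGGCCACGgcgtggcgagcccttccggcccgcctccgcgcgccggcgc
As above, the match describes letters only.

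The co-chaperone gene Dnajc3 had 212, 224, 222 and 197 CPM in CDC50A KD libraries 1 to 4, against 157, 161, 157 and 169 CPM in ATP11A/C KD libraries 1 to 4. These levels lay above Parental at 128 CPM in both groups, and every CDC50A KD library was the higher (log2 fold change 0.41 ± 0.04 (SE), adjusted p = 2e-06). Creld2, an endoplasmic reticulum protein with disulfide isomerase activity, had 232, 232, 247 and 232 CPM in CDC50A KD libraries 1 to 4, against 189.8, 184, 181 and 179.5 CPM in ATP11A/C KD libraries 1 to 4 (log2 fold change 0.36 ± 0.04 (SE), adjusted p = 7.1e-06). The disulfide isomerase gene Pdia4 had 517, 552, 522 and 511 CPM in CDC50A KD libraries 1 to 4, against 412, 397, 412 and 429.7 CPM in ATP11A/C KD libraries 1 to 4 (log2 fold change 0.35 ± 0.04 (SE), adjusted p = 8e-06). Both genes separated the groups without overlap. Calr, which encodes the calcium-binding chaperone calreticulin, had a log2 fold change of 0.26 (adjusted p = 4.8e-05), Pdia6, another isomerase, of 0.21 (adjusted p = 0.00053), and Hspa5, the chaperone BiP, of 0.20 (adjusted p = 0.0011). Xbp1, a transcription factor of the response, had 0.09 (adjusted p = 0.058), past the threshold in neither direction. The stress sensor IRE1, encoded by Ern1, was the 1 member called lower (log2 fold change -0.20 ± 0.06 (SE), adjusted p = 0.027), and that call was lost without ATP11A/C KD library 3 (adjusted p = 0.0785), CDC50A KD library 2 (0.0573) or CDC50A KD library 3 (0.0752), and with no low-count filter (0.054).

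The amino acid response overlapped this pattern. Of 30 tested members of the ATF4 list, 18 were called higher (60%, beside 13.5% of all tested genes) and 2 lower (6.67%, beside 12.7%). The median log2 fold change was 0.164. Against Parental the medians were 0.253 in CDC50A KD and 0.0743 in ATP11A/C KD. The asparaginyl-tRNA synthetase gene Nars had 417, 437, 424 and 426 CPM in CDC50A KD libraries 1 to 4, against 340.1, 358, 352 and 350.1 CPM in ATP11A/C KD libraries 1 to 4 (log2 fold change 0.28 ± 0.03 (SE), adjusted p = 9e-06). Its CDC50A KD libraries lay above Parental at 389 CPM and its ATP11A/C KD libraries below. The seryl-tRNA synthetase gene Sars had a log2 fold change of 0.24 (adjusted p = 0.00021), Mthfd2, a mitochondrial folate enzyme, of 0.31 (adjusted p = 0.00018), and Psat1, a serine synthesis enzyme, of 0.22 (adjusted p = 0.00027). The stress factor Atf3 went the other way, at 31.7, 31.7, 31.8 and 34.2 CPM in CDC50A KD and 40.7, 37.01, 35.9 and 38.7 CPM in ATP11A/C KD (log2 fold change -0.23 ± 0.05 (SE), adjusted p = 0.0019), with both below Parental at 70.9 CPM.

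Cytosolic ribosomal protein genes moved as a block. Of 76 tested, 65 were called higher (85.5%, beside 13.5% of all tested genes) and 0 lower (beside 12.7%). All 76 estimates were above 0 (range 0.0788 to 0.479). Without overlap of the 8 libraries 60 were higher, beside 11.7% of all tested genes. Leaving out 1 library at a time gave 45 to 65 ribosomal protein genes called higher. They took 5.43 ± 0.0829% of counts in CDC50A KD and 4.98 ± 0.164% in ATP11A/C KD (SD, n = 4 each; two-sided exact permutation test, p = 0.0286, the smallest this design allows), against 4.31 ± 0.203% in Parental. Rps28 had 254, 225, 254 and 212 CPM in CDC50A KD libraries 1 to 4, against 178, 185, 150.0 and 164 CPM in ATP11A/C KD libraries 1 to 4 (log2 fold change 0.48 ± 0.09 (SE), adjusted p = 0.00094). Rpl29 had 58.03, 57.8, 59.6 and 59.5 CPM in CDC50A KD libraries 1 to 4, against 46.1, 47.5, 45.8 and 46.4 CPM in ATP11A/C KD libraries 1 to 4 (log2 fold change 0.34 ± 0.06 (SE), adjusted p = 0.00044). Rpl7a had 0.26 (adjusted p = 0.00034) and Rps6 0.25 (adjusted p = 0.00036) as log2 fold changes. Ribosomal protein genes have many processed pseudogenes that can share their reads. Rrs1, a factor of 60S ribosome assembly outside the list, had 126, 111, 121 and 113 CPM in CDC50A KD libraries 1 to 4, against 69.6, 72.01, 73.3 and 67.1 CPM in ATP11A/C KD libraries 1 to 4 (log2 fold change 0.74 ± 0.05 (SE), adjusted p = 5.3e-09), and here it was ATP11A/C KD that lay below Parental, at 105, 113, 103 and 101 CPM.

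Short and abundant transcripts were higher more often in general. In the shortest quintile of protein-coding genes by transcript length (204 to 1990 bases), 22.2% were called higher and 3.89% lower in CDC50A KD; in the longest quintile (5189 to 123200 bases), 8.37% were higher and 21.6% lower. In the quintile of genes with the highest mean CPM (101.4 CPM and above), 32.7% were higher and 5.82% lower, and in the lowest quintile 4.16% were higher and 13.8% lower. The quintiles by GC content differed less, from 11.5% to 16.6% higher. The part of length or level in any list's count was not tested.

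Actin and macrophage genes were called higher more often than lower. Of 44 tested genes of the actin cytoskeleton and phagocytic cup, 22 were called higher (50%, beside 13.5% of all tested genes) and 2 lower (4.55%, beside 12.7%). The median log2 fold change was 0.159. Against Parental the medians were -0.0255 in CDC50A KD and -0.15 in ATP11A/C KD. Marcksl1, an actin-binding protein of the MARCKS family, had 130.5, 135, 138 and 134 CPM in CDC50A KD libraries 1 to 4, against 100.5, 90.4, 88.7 and 90.4 CPM in ATP11A/C KD libraries 1 to 4 (log2 fold change 0.54 ± 0.05 (SE), adjusted p = 1.9e-07). The cytoplasmic actin gene Actg1 had 1793, 1750.0, 1799 and 1617 CPM in CDC50A KD libraries 1 to 4, against 1309, 1308, 1251 and 1360.0 CPM in ATP11A/C KD libraries 1 to 4 (log2 fold change 0.41 ± 0.04 (SE), adjusted p = 1.4e-06). Both were separate between the groups, and Parental averaged 118 CPM and 1864 CPM. Ezr, which encodes ezrin that links actin to the membrane, had 0.43 (adjusted p = 4.6e-06) as its log2 fold change and Lcp1, the actin bundler L-plastin, had 0.32 (adjusted p = 4.6e-06). Of 29 tested macrophage identity genes, 13 were higher (44.8%) and 2 lower (6.9%), with log2 fold changes from -1.09 to 0.847. Against Parental their medians were -0.246 in CDC50A KD and -0.262 in ATP11A/C KD, with 5 and 2 members called higher and 15 and 19 lower. Over all tested genes, 24.3% and 17.4% were called higher than Parental and 26.1% and 20.2% lower. The growth factor receptor gene Csf1r had a log2 fold change of 0.32 (adjusted p = 2.7e-05), the lysozyme gene Lyz1, which can share reads with Lyz2, of 0.61 (adjusted p = 4.7e-06) at 9.86 ± 0.513 CPM in CDC50A KD and 6.44 ± 0.296 CPM in ATP11A/C KD and 172 CPM in Parental, and the sialic acid receptor gene Siglec1 of 0.44 (adjusted p = 0.00015).

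p53 target genes were lower in CDC50A KD. Of 27 tested, 0 were called higher (beside 13.5% of all tested genes) and 17 lower (63%, beside 12.7%). The median log2 fold change was -0.316, and 15 to 18 were lower when 1 library was left out. Against Parental the medians were -0.201 in CDC50A KD and 0.0211 in ATP11A/C KD, with 4 members called higher and 14 lower in CDC50A KD and 10 higher and 5 lower in ATP11A/C KD. Over all tested genes, 24.3% were called higher and 26.1% lower for CDC50A KD, and 17.4% and 20.2% for ATP11A/C KD. Phlda3 (chr1:135766119-135769136), a p53-induced repressor of Akt signalling, had 3.86, 4.29, 3.19 and 3.19 CPM in CDC50A KD libraries 1 to 4, against 12.2, 10.2, 9.17 and 10.6 CPM in ATP11A/C KD libraries 1 to 4. It was separate between the groups (log2 fold change -1.55 ± 0.13 (SE), adjusted p = 1.2e-07). Against Parental at 4.96 ± 0.801 CPM it was lower in CDC50A KD (log2 fold change -0.47, adjusted p = 0.0057) and higher in ATP11A/C KD (1.08, adjusted p = 3.6e-07). Zmat3, a zinc finger RNA-binding protein, had 49.5, 50.2, 49.8 and 42.05 CPM in CDC50A KD libraries 1 to 4, against 92.5, 64.8, 83.7 and 81.01 CPM in ATP11A/C KD libraries 1 to 4 (log2 fold change -0.75 ± 0.08 (SE), adjusted p = 1.4e-06), and Parental was at 55.4, 54.4, 56.6 and 57.01 CPM. The antiproliferative gene Btg2 had 23.02, 21.4, 24.2 and 27.9 CPM in CDC50A KD libraries 1 to 4, against 38.7, 38.9, 36.2 and 34.98 CPM in ATP11A/C KD libraries 1 to 4 (log2 fold change -0.62 ± 0.08 (SE), adjusted p = 1.2e-05). For both, ATP11A/C KD lay above Parental; for Btg2, CDC50A KD did not differ from Parental past the threshold (log2 fold change 0.04, adjusted p = 0.69).

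Other members had other relations to Parental. Sesn1, a sestrin, was above Parental in both (log2 fold change 0.45 in CDC50A KD and 0.76 in ATP11A/C KD) and lower in CDC50A KD (log2 fold change -0.32 ± 0.04 (SE), adjusted p = 6.6e-06). Cdkn1a, the cell cycle inhibitor p21, and Mdm2, the ubiquitin ligase of p53, were below Parental in both, with -0.45 and -0.51 in CDC50A KD and -0.14 and -0.31 in ATP11A/C KD, and were lower in CDC50A KD directly (log2 fold changes -0.32 (adjusted p = 0.00016) and -0.21 (adjusted p = 0.005)). Eda2r, a receptor of the TNF family, and Trp53inp1, a stress-induced nuclear protein, were picked after their values were seen. Eda2r was at 1.16 to 2.76 CPM in CDC50A KD and 4.11 to 4.87 CPM in ATP11A/C KD, with -1.22 (adjusted p = 0.00011) as its log2 fold change. Trp53inp1 was at 1.78 to 3.15 CPM in CDC50A KD and 3.63 to 6.45 CPM in ATP11A/C KD, with -1.08 (adjusted p = 0.00018) as its log2 fold change. Of 34 tested S-phase genes, 12 were higher (35.3%, beside 13.5% of all tested genes) and 2 lower (5.88%, beside 12.7%). The count of higher S-phase genes was 7 without ATP11A/C KD library 3 or 4 or CDC50A KD library 1 or 3. Of 32 tested genes of mitosis and G2/M, 8 were higher (25%, beside 13.5% of all tested genes) and 0 lower (beside 12.7%). The count of higher ones was 5 without ATP11A/C KD library 1, 3 or 4 or CDC50A KD library 3, 4 without CDC50A KD library 1 and 3 without CDC50A KD library 2, and 2 were lower without ATP11A/C KD library 1.

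**Figure D4:**
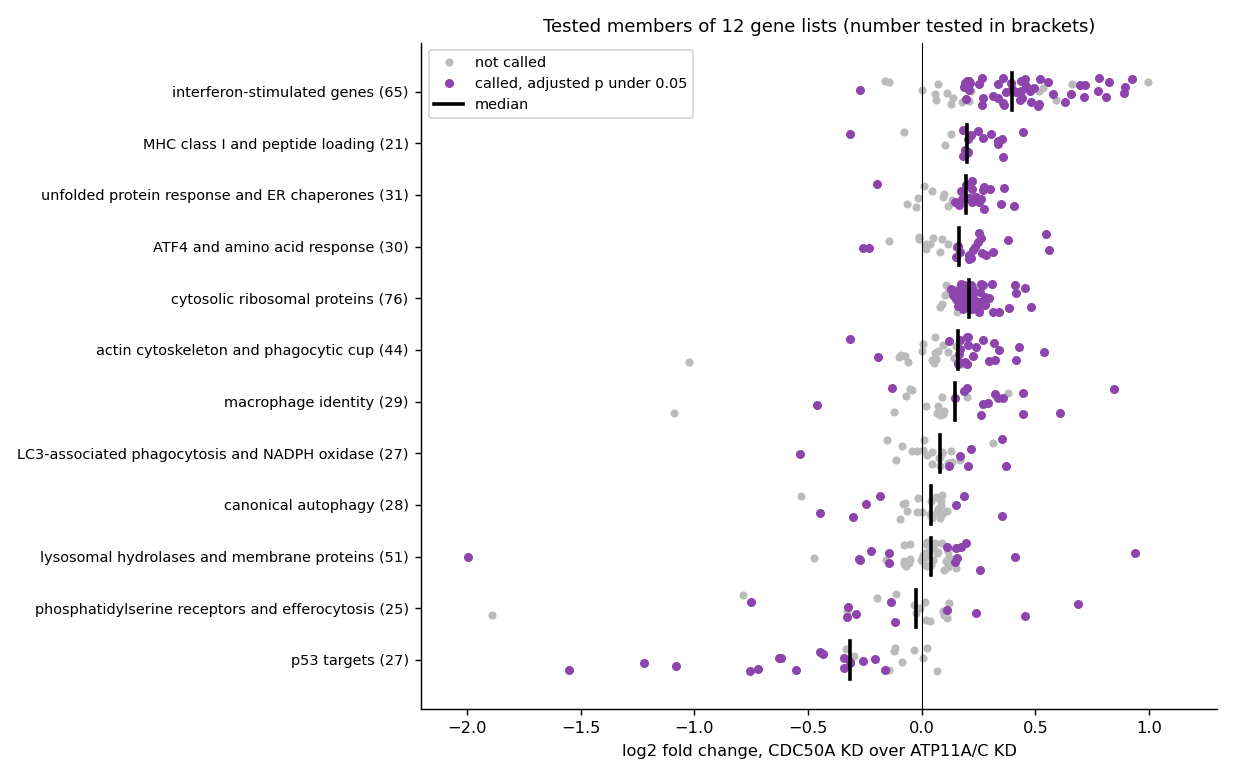
Log2 fold change of CDC50A KD over ATP11A/C KD for each tested member (points) of 12 gene lists, with called members in purple and the list median as a black bar. The medians run from 0.395 for interferon-stimulated genes to -0.316 for p53 targets, with autophagy, lysosome and phosphatidylserine receptor lists near 0.

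Long non-coding RNA (lncRNA) genes were called lower more often than higher in CDC50A KD. Of 693 tested, 13 were called higher (1.88%, beside 13.5% of all tested genes) and 125 lower (18%, beside 12.7%). At least 2-fold, 49 of the 693 were lower, beside 1.44% of all tested genes. The median log2 fold change was -0.279, and 98 to 136 were lower when 1 library was left out. Of the 189 genes at least 2-fold lower, 87 were not protein coding and 102 were. Among all 13107 tested genes, 11185 were protein coding. Of 864 processed pseudogenes, 100 were called higher (11.6%, beside 13.5% of all tested genes) and 13 lower (1.5%, beside 12.7%). Only their share called lower thus lay far from that of all tested genes. When 1 library was left out, 65 to 107 were higher and 6 to 19 lower. The share of all counts in lncRNA genes overlapped, however, at 1.31 ± 0.0431% in CDC50A KD and 1.44 ± 0.221% in ATP11A/C KD (SD, n = 4 each; two-sided exact permutation test, p = 0.371). The lncRNAs named here were chosen after their values were seen.

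Neat1 (chr19:5824708-5845478), the RNA scaffold of nuclear paraspeckles, had 40.1, 30.8, 30.4 and 47.2 CPM in CDC50A KD libraries 1 to 4, against 90.1, 173, 161 and 115 CPM in ATP11A/C KD libraries 1 to 4. The highest CDC50A KD library was below the lowest ATP11A/C KD library (log2 fold change -1.85 ± 0.21 (SE), adjusted p = 5.1e-06). Malat1 (chr19:5795690-5802672), an RNA of nuclear speckles and Neat1's neighbour, had 67.1, 45.7, 66.7 and 47.5 CPM in CDC50A KD libraries 1 to 4, against 220.5, 87.8, 151 and 75.6 CPM in ATP11A/C KD libraries 1 to 4 (log2 fold change -1.24 ± 0.25 (SE), adjusted p = 0.0014). Firre (chrX:50555744-50635321), an X-linked nuclear RNA, had 5.66, 4.82, 5.58 and 7.95 CPM in CDC50A KD libraries 1 to 4, against 15.96, 27.2, 28.4 and 20.5 CPM in ATP11A/C KD libraries 1 to 4 (log2 fold change -1.92 ± 0.23 (SE), adjusted p = 8.2e-06). For all 3, CDC50A KD was lower than Parental (log2 fold changes -1.94, -0.99 and -1.97, at adjusted p of 2e-07, 0.0028 and 5.4e-07), and ATP11A/C KD was not past the threshold (-0.09, 0.24 and -0.05, at 0.76, 0.48 and 0.89).

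Host genes of small nucleolar RNAs were lower too. Of 14 such genes, named Snhg or being Gas5 and Zfas1, 0 were called higher and 12 lower (85.7%, beside 12.7% of all tested genes). The median log2 fold change was -0.811, and this family was drawn up after values were seen. Snhg1 had 18.7, 16.7, 16.7 and 26.2 CPM in CDC50A KD libraries 1 to 4, against 30.1, 57.05, 45.8 and 39.4 CPM in ATP11A/C KD libraries 1 to 4 (log2 fold change -1.12 ± 0.17 (SE), adjusted p = 7.7e-05). Gas5 had 26.5, 25.6, 24.4 and 32.2 CPM in CDC50A KD libraries 1 to 4, against 38.3, 67.8, 55.4 and 47.7 CPM in ATP11A/C KD libraries 1 to 4 (log2 fold change -0.94 ± 0.14 (SE), adjusted p = 6.4e-05). Neither gene's groups overlapped. Mir17hg, the primary transcript of the miR-17-92 cluster, was at 7.17 ± 1.15 CPM in CDC50A KD and 17.5 ± 4.95 CPM in ATP11A/C KD (log2 fold change -1.29 ± 0.19 (SE), adjusted p = 6.1e-05), and Parental was at 9.75 ± 1.33 CPM, so that this RNA lay above Parental in ATP11A/C KD (adjusted p = 0.00091).

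Protein-coding genes of RNA processing with similar profiles stood among the 15 lowest. Rsrp1, an arginine- and serine-rich protein, had 54.9, 45.2, 49.1 and 58.2 CPM in CDC50A KD libraries 1 to 4, against 80.9, 148, 138 and 106 CPM in ATP11A/C KD libraries 1 to 4 (log2 fold change -1.18 ± 0.17 (SE), adjusted p = 6.8e-05). Pnisr, a serine- and arginine-rich splicing-related protein, had 27.5, 25.7, 26.8 and 34.3 CPM in CDC50A KD libraries 1 to 4, against 45.2, 64.4, 61.5 and 53.7 CPM in ATP11A/C KD libraries 1 to 4 (log2 fold change -0.97 ± 0.12 (SE), adjusted p = 9e-06). Ccnl2, the cyclin L2 of splicing kinases, was at 32.5 ± 2.82 CPM in CDC50A KD and 60.1 ± 11.7 CPM in ATP11A/C KD (log2 fold change -0.88 ± 0.15 (SE), adjusted p = 0.00023). All 3 were lower than Parental in CDC50A KD (log2 fold changes -1.33, -0.89 and -1.06). The CLK kinases, which phosphorylate splicing factors and were grouped after values were seen, were called lower in 4 of 4 (beside 12.7% of all tested genes). Their log2 fold changes ran from -0.772 to -0.232, with Clk1 at -0.77 (adjusted p = 0.00017) and Clk4 at -0.57 (adjusted p = 0.001). Without overlap of the 8 libraries 2 of the 4 were lower, beside 10.5% of all tested genes. SR proteins named Srsf were not uniform, with 2 of 10 higher (20%, beside 13.5% of all tested genes) and 1 lower (10%, beside 12.7%). When 1 library was left out, 0 to 2 were higher and 1 to 4 lower.

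Several of these RNAs were lowest in the same library of a group. ATP11A/C KD library 1 had the lowest value of its 4 for Neat1, Firre, Snhg1, Gas5, Rsrp1, Pnisr and Ccnl2, and the highest for Malat1 and Gm42418. Parental library 2 was the lowest of its 4 for Neat1 (96.0 CPM, against 134 to 178 CPM in the other 3), Firre and Rsrp1. Among genes described elsewhere, Lilrb4a, Lilr4b, Slfn4, Atg16l1, Ankrd16, Ints6l and Metap1d were likewise lowest of their group in ATP11A/C KD library 1 and Parental library 2. The part of RNA handling or library composition in any of these genes was not tested.

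**Figure D5:**
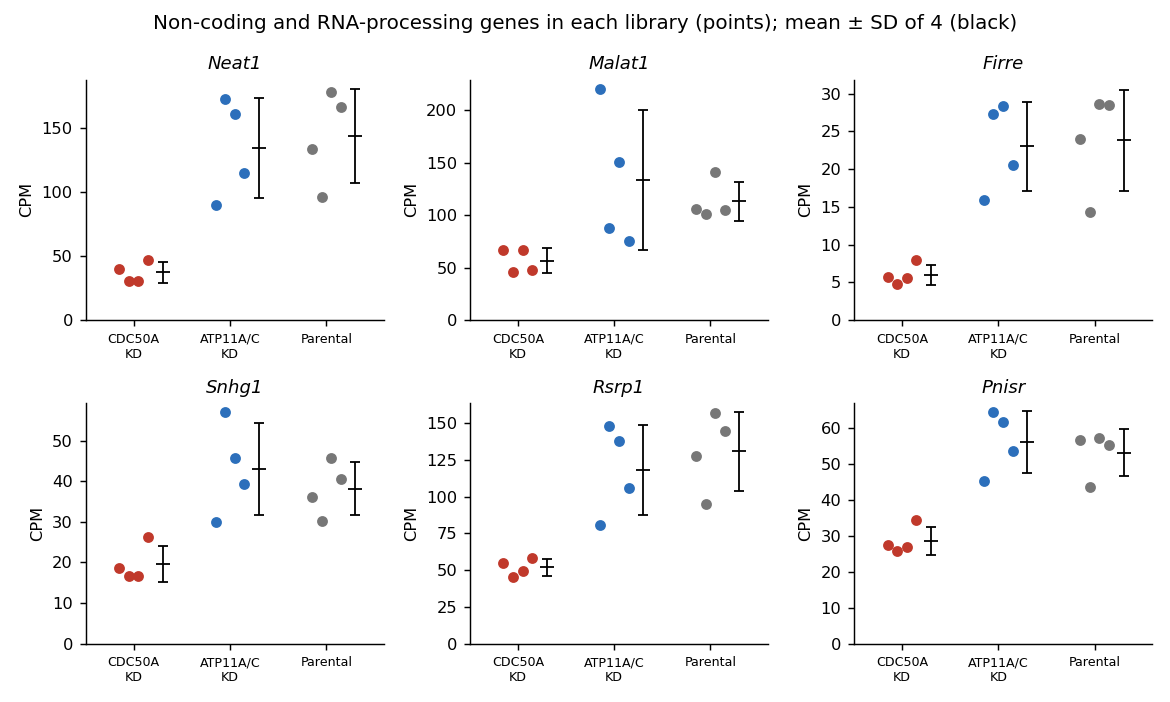
CPM of Neat1, Malat1, Firre, Snhg1, Rsrp1 and Pnisr on the vertical axes, 1 point per library, with the mean ± SD of 4 libraries in black. CDC50A KD lies below every ATP11A/C KD and Parental library for all 6 genes, with Malat1 at 45.7 to 67.1 CPM in CDC50A KD and 75.6 to 220 CPM in ATP11A/C KD.

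Some genes far from Parental in both knockdowns differed in how far. Chst1 (chr2:92599707-92615250), a sulfotransferase of keratan sulfate, had 82.8, 85.7, 86.1 and 104 CPM in CDC50A KD libraries 1 to 4, against 60.3, 46.1, 48.2 and 50.4 CPM in ATP11A/C KD libraries 1 to 4. Parental was at 1.69 ± 0.0583 CPM, so that both were much higher, CDC50A KD the more (log2 fold change 0.81 ± 0.08 (SE), adjusted p = 9.9e-07). Hpgd, the prostaglandin-degrading 15-hydroxyprostaglandin dehydrogenase, had 55.6, 59.8, 51.95 and 58.4 CPM in CDC50A KD libraries 1 to 4, against 28.1, 36.8, 32.1 and 35.4 CPM in ATP11A/C KD libraries 1 to 4 (log2 fold change 0.77 ± 0.08 (SE), adjusted p = 1.1e-06), with 1.003 ± 0.135 CPM in Parental. Trp53i11, named as a p53-inducible gene though it does not follow the p53 list here, had 83.2, 84.7, 85.2 and 87.7 CPM in CDC50A KD libraries 1 to 4, against 58.5, 48.5, 49.3 and 50.4 CPM in ATP11A/C KD libraries 1 to 4 (log2 fold change 0.72 ± 0.06 (SE), adjusted p = 2.5e-07), with 6.37 ± 0.588 CPM in Parental. Car2, carbonic anhydrase 2, was at 903 ± 19.4 CPM in CDC50A KD and 727 ± 12.7 CPM in ATP11A/C KD and 376 CPM in Parental (log2 fold change 0.31 ± 0.03 (SE), adjusted p = 3.5e-06). Hpgds, a prostaglandin D2 synthase, went the other way, at 55.6 to 64.2 CPM in CDC50A KD and 70.6 to 97.2 CPM in ATP11A/C KD (log2 fold change -0.47 ± 0.07 (SE), adjusted p = 0.00013).

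Single genes on either side filled out the extremes. The protease inhibitor gene Slpi was at 13.8, 14.1, 12.96 and 15.9 CPM in CDC50A KD, 7.40, 8.98, 5.79 and 8.19 CPM in ATP11A/C KD and 7.23, 7.12, 8.01 and 7.35 CPM in Parental (log2 fold change 0.91 ± 0.10 (SE), adjusted p = 5.7e-06), and was called above Parental for CDC50A KD (log2 fold change 0.94, adjusted p = 3.2e-07) and not for ATP11A/C KD (0.03, adjusted p = 0.87). Cd24a, a surface glycoprotein anchored by lipid, had 8.73, 11.2, 11.2 and 9.81 CPM in CDC50A KD libraries 1 to 4, against 5.05, 6.37, 5.50 and 4.16 CPM in ATP11A/C KD libraries 1 to 4 (log2 fold change 0.95 ± 0.12 (SE), adjusted p = 1.4e-05), both below Parental at 16.7 CPM. Ppic, which encodes cyclophilin C, had 12.1, 12.7, 12.9 and 13.2 CPM in CDC50A KD libraries 1 to 4, against 26.6, 29.8, 25.4 and 26.9 CPM in ATP11A/C KD libraries 1 to 4 (log2 fold change -1.10 ± 0.06 (SE), adjusted p = 1.5e-10), and Parental lay beside ATP11A/C KD at 28.9, 28.9, 26.7 and 27.6 CPM. Kcnj2, an inward-rectifier potassium channel, was at 21.1 ± 0.735 CPM in CDC50A KD and 39.9 ± 3.64 CPM in ATP11A/C KD (log2 fold change -0.91 ± 0.09 (SE), adjusted p = 9.9e-07), and Pde1b, a calmodulin-dependent phosphodiesterase, at 7.68 ± 1.62 CPM in CDC50A KD and 18.6 ± 1.76 CPM in ATP11A/C KD (log2 fold change -1.26 ± 0.14 (SE), adjusted p = 4.6e-06). The rest of the 15 lowest were Ankrd16, Ints6l, Tagap1, Metap1d, Cntnap1, Sfi1 and Zfp692, with log2 fold changes from -1.24 for Ankrd16 to -0.87 for Zfp692, and the inhibitory receptor gene Lilrb4a described below.

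Some genes near absence in ATP11A/C KD were measurable in CDC50A KD. Oosp2, named as an oocyte-secreted protein, had 1.03, 1.18, 1.65 and 1.17 CPM in CDC50A KD libraries 1 to 4 and 0 in all ATP11A/C KD and all Parental libraries; against a floor of 3 counts over the 4 ATP11A/C KD libraries this is at least 62.0-fold higher. Ltb4r1, the leukotriene B4 receptor, had 0.927, 1.27, 0.980 and 1.25 CPM in CDC50A KD libraries 1 to 4, against 0.0247, 0.150, 0.0720 and 0.0620 CPM in ATP11A/C KD libraries 1 to 4. Cav1, caveolin-1, had 1.29, 1.09, 1.44 and 0.968 CPM in CDC50A KD libraries 1 to 4, against 0.173, 0.120, 0.120 and 0.0930 CPM in ATP11A/C KD libraries 1 to 4. These are levels near 1 CPM, and all 3 genes passed the low-count filter only through CDC50A KD, the group where they are high, so their values are a description with no test. The chemokine gene Cxcl14 had 8.93, 7.05, 9.13 and 7.19 CPM in CDC50A KD libraries 1 to 4, against 3.96, 3.88, 3.27 and 3.54 CPM in ATP11A/C KD libraries 1 to 4 (log2 fold change 1.15 ± 0.12 (SE), adjusted p = 1.3e-06). Oosp2 and Cav1 were chosen after their values were seen.

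Genes that read or handle phosphatidylserine went both ways. Of 25 tested receptors and bridging molecules of dying-cell clearance, 4 were called higher (16%, beside 13.5% of all tested genes) and 6 lower (24%, beside 12.7%). The median log2 fold change was -0.0238. Without ATP11A/C KD library 3 or 4 or CDC50A KD library 3 or 4, 2 were higher. Leaving out 1 library at a time gave 4 to 8 lower. Gas6, the bridge from phosphatidylserine to TAM receptors, had 7.26, 6.65, 7.32 and 6.47 CPM in CDC50A KD libraries 1 to 4, against 12.4, 11.2, 12.7 and 10.2 CPM in ATP11A/C KD libraries 1 to 4. The groups were separate (log2 fold change -0.75 ± 0.08 (SE), adjusted p = 4.5e-06), and Parental was higher than both at 41.4 ± 2.48 CPM. Pros1, protein S and the other such bridge, moved oppositely, with 26, 24.8, 26.7 and 26.04 CPM in CDC50A KD libraries 1 to 4, against 17.3, 20.6, 18.3 and 19.5 CPM in ATP11A/C KD libraries 1 to 4 (log2 fold change 0.45 ± 0.06 (SE), adjusted p = 2.5e-05). Dock1, a Rac activator of engulfment, had -0.29 (adjusted p = 0.00013) as its log2 fold change. Havcr2, the phosphatidylserine receptor TIM-3, had -0.33 (adjusted p = 0.00018) and was above Parental in both (0.32 in CDC50A KD and 0.65 in ATP11A/C KD).

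Genes that make phosphatidylserine or carry lipids between membranes gave 5 higher and 7 lower of 29 tested. These were 17.2% and 24.1%, beside 13.5% and 12.7% of all tested genes, and 3 were higher without CDC50A KD library 1 or 3. Ptdss1, phosphatidylserine synthase 1, had 91.4, 97.3, 101 and 91 CPM in CDC50A KD libraries 1 to 4, against 77.6, 71.98, 72.8 and 71.2 CPM in ATP11A/C KD libraries 1 to 4 (log2 fold change 0.37 ± 0.04 (SE), adjusted p = 6.2e-06). It lay above Parental in CDC50A KD (log2 fold change 0.16, adjusted p = 0.0051) and below in ATP11A/C KD (-0.22, adjusted p = 0.00044). Vapb, a tether of the endoplasmic reticulum, had 0.29 (adjusted p = 3.2e-05) as its log2 fold change. Gramd1a, a sterol carrier at contacts with the plasma membrane, had -0.46 (adjusted p = 0.00027). Osbpl10, a phosphatidylserine transfer protein chosen after its values were seen, was at 0.408 to 1.004 CPM in CDC50A KD and 0.991 to 1.58 CPM in ATP11A/C KD (log2 fold change -1.07 ± 0.24 (SE), adjusted p = 0.0031). Of 13 tested scramblases 1 was called higher and 2 lower, with a median log2 fold change of -0.0873, a share of calls near the 26.2% of all tested genes. Tmem41b of the endoplasmic reticulum had 0.19 (adjusted p = 0.0081). Tmem63b had -0.22 (adjusted p = 0.015), and its call was lost without ATP11A/C KD library 3 (adjusted p = 0.0569) and with no low-count filter (0.0586). Plscr4 was at 0.484 to 0.827 CPM in CDC50A KD and 0.961 to 1.14 CPM in ATP11A/C KD, with -0.73 (adjusted p = 0.026) as its log2 fold change, and its call was lost without ATP11A/C KD library 4 (adjusted p = 0.0517), CDC50A KD library 1 (0.0807) or CDC50A KD library 4 (0.0761), and in a fit of the 8 libraries alone (0.0514). Without ATP11A/C KD library 1 or 2, 3 scramblases were lower.

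For LC3-associated phagocytosis, the process in the study's title, 6 of 27 tested genes of the pathway and its NADPH oxidase were higher and 1 lower, with a median log2 fold change of 0.0814. These were 22.2% and 3.7%, beside 13.5% and 12.7% of all tested genes, and the estimate was above 0 for 21 members. Leaving out 1 library gave 5 to 8 higher and 1 to 3 lower, with 3 lower without ATP11A/C KD library 1 and 2 without CDC50A KD library 4. Map1lc3b, the LC3B that is joined to phagosome membranes, had 108, 106, 108 and 110.5 CPM in CDC50A KD libraries 1 to 4, against 86.1, 82.1, 83.8 and 83.4 CPM in ATP11A/C KD libraries 1 to 4. The groups were separate (log2 fold change 0.37 ± 0.04 (SE), adjusted p = 1.8e-06), and both were above Parental at 65.3 ± 1.39 CPM. Atg16l1, of the complex that lipidates LC3, was the 1 gene lower, with 23.3, 22.1, 23.4 and 24.1 CPM in CDC50A KD libraries 1 to 4, against 26.5, 37.2, 36.6 and 34.9 CPM in ATP11A/C KD libraries 1 to 4 (log2 fold change -0.54 ± 0.09 (SE), adjusted p = 0.00026). Tmem173, which encodes STING, had 0.35 (adjusted p = 9.4e-05) as its log2 fold change. Cybb, the catalytic oxidase subunit NOX2, had 0.17 (adjusted p = 0.0082), and its call was lost without CDC50A KD library 2 (adjusted p = 0.0556). Rubcn, the Rubicon protein required for this form of phagocytosis, was at 38.01 ± 0.420 CPM in CDC50A KD and 36.01 ± 3.72 CPM in ATP11A/C KD (log2 fold change 0.08 ± 0.06 (SE), adjusted p = 0.36).

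Canonical autophagy had 3 of 28 higher and 4 lower (10.7% and 14.3%, beside 13.5% and 12.7% of all tested genes). Without ATP11A/C KD library 2 or CDC50A KD library 4, 1 was higher. Stx17, the autophagosomal fusion protein, was at 20.3 ± 0.961 CPM in CDC50A KD and 27.6 ± 1.65 CPM in ATP11A/C KD (log2 fold change -0.45 ± 0.06 (SE), adjusted p = 3.5e-05). Of 51 tested lysosomal genes 9 were higher and 6 lower (17.6% and 11.8%, beside 13.5% and 12.7% of all tested genes), with 4 higher without ATP11A/C KD library 3, CDC50A KD library 2 or CDC50A KD library 3. Ctse, cathepsin E, was at 50.97 ± 3.21 CPM in CDC50A KD and 38.3 ± 2.21 CPM in ATP11A/C KD (log2 fold change 0.41 ± 0.06 (SE), adjusted p = 4.8e-05), above Parental at 17.7 CPM. Ctsz, cathepsin Z, had 0.25 (adjusted p = 0.00031) as its log2 fold change. Cathepsin K, encoded by Ctsk, was at 0.153 to 0.263 CPM in CDC50A KD and 0.816 to 1.02 CPM in ATP11A/C KD (log2 fold change -1.996 ± 0.25 (SE), adjusted p = 1.7e-05). Tcirg1, a V-ATPase subunit of osteoclasts and macrophages, was at 145 ± 10.3 CPM in CDC50A KD and 199 ± 11.2 CPM in ATP11A/C KD (log2 fold change -0.46 ± 0.07 (SE), adjusted p = 5.5e-05). Of 18 V-ATPase genes, 2 were higher (11.1%, beside 13.5% of all tested genes) and 4 lower (22.2%, beside 12.7%).

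Of 26 phagocytic receptors of opsonins and microbial patterns, 7 were higher (26.9%, beside 13.5% of all tested genes) and 1 lower (3.85%, beside 12.7%). The complement receptor gene C5ar1, listed among chemoattractant receptors too, had 26.1, 26.2, 23.98 and 25.8 CPM in CDC50A KD libraries 1 to 4, against 19.2, 15.4, 18 and 16.8 CPM in ATP11A/C KD libraries 1 to 4 (log2 fold change 0.56 ± 0.07 (SE), adjusted p = 1.3e-05). Fcgr1, the high-affinity Fc receptor, had 145, 155, 151 and 161 CPM in CDC50A KD libraries 1 to 4, against 119, 124, 119 and 116 CPM in ATP11A/C KD libraries 1 to 4 (log2 fold change 0.36 ± 0.05 (SE), adjusted p = 1.7e-05). Both were separate between the groups; for Fcgr1, CDC50A KD did not differ from Parental past the threshold (log2 fold change -0.07, adjusted p = 0.23) and ATP11A/C KD was lower (-0.42, adjusted p = 1.8e-07). The lipopolysaccharide co-receptor gene Cd14 had 0.26 (adjusted p = 0.00011) and the C-type lectin gene Clec4d 0.24 (adjusted p = 0.0018).

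Of 22 tested costimulation and checkpoint genes, 1 was higher (4.55%, beside 13.5% of all tested genes) and 6 lower (27.3%, beside 12.7%). Lilrb4a, an inhibitory receptor with the close paralog Lilr4b, had 34.01, 53.1, 38.6 and 47.3 CPM in CDC50A KD libraries 1 to 4, against 69.5, 108, 90.4 and 76.4 CPM in ATP11A/C KD libraries 1 to 4 (log2 fold change -0.999 ± 0.17 (SE), adjusted p = 0.00027). Lilr4b had -0.73 (adjusted p = 0.0019), and reads of the 2 may be shared. In ATP11A/C KD library 1 and Parental library 2, each was at the lowest level of its group, as was Neat1. Both were furthest below Parental in CDC50A KD (log2 fold changes -2.45 and -2.96, against -1.45 and -2.23 in ATP11A/C KD). Cd80, a ligand of CD28, was at 4.98 ± 0.869 CPM in CDC50A KD and 8.89 ± 0.956 CPM in ATP11A/C KD (log2 fold change -0.82 ± 0.12 (SE), adjusted p = 7.9e-05). The 1 gene higher was Lgals9, galectin 9, at 160.0 ± 11.1 CPM in CDC50A KD and 123 ± 3.29 CPM in ATP11A/C KD (log2 fold change 0.38 ± 0.05 (SE), adjusted p = 1.9e-05).

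Other lists also had shares of calls near the background. Of 27 cholesterol synthesis genes 3 were higher and 4 lower, of 29 inflammatory cytokine and NF-kB genes 4 and 4, and of 31 TGF-beta and BMP genes 4 and 5. Their median log2 fold changes were -0.0102, 0.0259 and 0.0329. With 1 library left out, these counts ran from 1 to 4 higher and 2 to 6 lower for cholesterol synthesis, 3 to 6 and 2 to 6 for the inflammatory list, and 2 to 4 and 2 to 5 for TGF-beta and BMP.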

How the data were processed

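RNA-seq was done on 16 libraries of RAW264.7 cells, grouped by their labels, 4 each of CDC50A KD, ATP11A/C KD, ORP5/8 KD and Parental. Per the labels' protocols, libraries were made from 500 ng of total RNA with a stranded poly(A) kit. Per the submitters' processing notes, the tools were Trim Galore 0.5.0, STAR 2.7.5a, Picard and RSEM on mm10; the annotation release is not given in the sources used here. The deposited values are the authors' RSEM expected counts per gene. Of these, 4.64% had decimals, and they were rounded to whole counts. The 92 spike-in records, which sum to 0, were dropped, leaving 55573 genes. Coordinates and transcript lengths came from GENCODE M21 (GRCm38/mm10) by gene identifier, and promoters from RefSeq (GRCm38.p6).

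Genes were filtered with filterByExpr (minimum count 10), scaled by TMM and fitted with edgeR 4.0.16 (R 4.3.3) by quasi-likelihood over all 16 libraries, with 1 coefficient per group and no block; p-values were Benjamini-Hochberg adjusted over all 13107 genes. CPM use TMM library sizes. Single shares were tested by exact permutation over libraries. The fit was tested on simulated counts. The same-numbered libraries of the 2 knockdowns did not deviate together, and no pair of libraries agreed within sampling noise (smallest chi-square per degree of freedom 4.88). Of tested genes, 24 shared a symbol, and the record with the higher total was used in lists. Alternatives were other scalings and filters, DESeq2 1.42.0, a replicate block, the 8 libraries alone and each library left out.

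The comparison, the 48 gene lists and the printed genes were chosen with earlier results of these data known. Genes are named by rule: the targeted genes, the 15 highest and 15 lowest called protein-coding genes without overlap and with 10 CPM or more on the higher side, up to 4 per list by adjusted p, and the 5 most abundant changed at least 2-fold; every other gene named was chosen after its values were seen. Some genes that the rule names are not reported here.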

Additional observations from a re-analysis of the deposited data

Results flagged for a closer look

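In 246 groups of 4 libraries examined, 14 held 1 library far from the other 3 by Dixon's criterion, and chance alone marks about 1 group in 20. In CDC50A KD library 4, Oas2 was 131 CPM (108 to 109.5 CPM in the other 3), Mx2 16.1 CPM (9.04 to 9.68), Atf3 34.2 CPM (31.7 to 31.8), Chst1 104 CPM (82.8 to 86.1) and Gramd1a 34.0 CPM (26.9 to 27.7), while Zmat3 was 42.05 CPM (49.5 to 50.2) and Ctsk 0.153 CPM (0.245 to 0.263). In other CDC50A KD libraries, Lgals9 was 143 CPM in library 1 (164 to 167 in the other 3), Tmem41b 112 CPM in library 2 (102 to 103) and Creld2 247 CPM in library 3 (231.5 to 232). In ATP11A/C KD library 1, Psmb8 was 103 CPM (95.0 to 96.3), Marcksl1 100.5 CPM (88.7 to 90.4) and Ctsz 781 CPM (728 to 736). Cd80 was 10.3 CPM in ATP11A/C KD library 2 (8.21 to 8.53).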

How the results depend on the processing

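The counts of genes called higher and lower stayed within 1.5 times of 1763 and 1665 under both other scalings, both other filters, DESeq2, the 8 libraries alone and the replicate block (1712 higher and 1649 lower; at least 2-fold, 27 and 184). Leaving out 1 library at a time gave 1118 to 1873 higher and 1243 to 1968 lower; at least 2-fold, 25 to 44 and 153 to 220. The counts at least 2-fold depended on the low-count filter: 54 were higher with no filter, and 8 higher and 102 lower with 1 CPM in 4 libraries. Upper-quartile scaling gave 1446 higher and 1915 lower. The mitochondrial difference ranged from 0.0115 to 0.15 percentage points without 1 library, past no threshold. Same-numbered libraries correlated at 0.113, 0.0331, -0.206 and -0.068, so the numbers were not taken as pairs. Of the 114 called genes named, 0 reversed under 15 alternatives and 4, Cybb, Ern1, Plscr4 and Tmem63b, lost their call under any. Low levels limit fold changes near 1 CPM.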
